A study of Homo sapiens with 6 samples.

Results

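The genes described here are 53 factors of ribosome biogenesis and of the nucleolus, the nuclear body in which ribosomes are made. They were taken by gene symbol from a table of 19202 genes, and all 53 symbols were found. RNA sequencing had been used to compare MHCC97H cells, a human hepatocellular carcinoma line of high metastatic potential, in 2 states: control cells, which the labels call sensitive to sorafenib, and cells resistant to sorafenib, a multikinase inhibitor given in advanced liver cancer. There were 3 libraries for each state. The sources used here do not give how resistance was obtained, the drug dose, whether drug was present at harvest or whether the resistant cells were 1 clone. They also do not say if each replicate was its own culture. The p-values therefore reflect only how these libraries vary, which can be technical variation.

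Ribosome production starts when RNA polymerase I copies the ribosomal DNA into a long precursor RNA. Small nucleolar RNA-protein complexes (snoRNPs) then modify this precursor, the small-subunit (SSU) processome folds and cuts its first part into the 40S subunit, and a separate series of assembly factors builds the 60S subunit. MYC is the best known transcriptional driver of these genes, and their output sets how much protein a growing tumour cell can make.

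Totals ran from 1913469 to 5345272 counts per library, control replicate 1 being the shallowest, and the tested genes described here had 278 to 16858 counts each over all libraries. A level is given in CPM, a gene's counts for each 1000000 counts of the library after TMM scaling, and marker sums are over unscaled library totals. Each group mean is followed by the SD of its libraries (n = 3). A log2 fold change (log2FC) above 0 means a higher level in resistant cells, and SE is its standard error. Resistant replicate 3 stood apart in markers of other cells. It held 128 counts of the endothelial gene VWF, 94 of CDH5 and 34 of TIE1, where no other library exceeded 8 counts of any of these. The summed level of the 6 endothelial markers was 138 CPM there, 40.3 and 51.6 CPM in the other resistant libraries and 52 to 69.8 CPM in control, and no endothelial marker was at 0 in every library. Resistant replicate 3 also had the highest sum of the 8 fibroblast and stellate cell markers, 60.9 CPM. Their sum reached at most 40.3 CPM in control, while the remaining resistant libraries had 24.6 and 18.7 CPM. The 7 leukocyte markers summed to 5.23 to 12.1 CPM in control and 5.84 to 9.35 CPM in resistant libraries. The 5 epithelial markers summed to 1864 to 2448 CPM in control and 1754 to 2112 CPM in resistant libraries, with KRT8 at 1276 ± 154 CPM in control and 1099 ± 101 CPM in resistant libraries. The hepatocyte gene ALB was low (17.3 ± 3.75 and 5.53 ± 3.50 CPM), and EPCAM had 22 counts over all libraries.

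Transcripts of many of these factors were higher in resistant cells, with the largest log2FC in the RNA helicase DDX21, followed by the 60S assembly factors NOC3L, NIP7 and NOP16 and then by NPM1 and DKC1. Of the 53 genes, 52 passed the filter on low counts, and 23 of them were called higher and 0 lower in edgeR's quasi-likelihood test, with calls at an adjusted p of 0.05 over all 10804 genes tested. Of all genes tested, 11.7% were called higher and 12.3% lower. At an unadjusted edgeR p of 0.05, 33 of the 52 were higher and 0 lower. Of all 10804 genes tested, 1872 were higher and 1920 lower at that threshold. DESeq2 and limma-voom called the same 23 of the 52 higher and 0 lower. The median log2FC was 0.34 against -0.01 over all genes tested, and 48 of the 52 values lay above 0, against 49.4% of all genes. Every resistant library exceeded every control library for 36 of the 52, including all 23 called genes, where 19.2% of all genes tested showed this. The reverse held for 1 of the 52, POLR1A, and for 18.9% of all genes tested. These are shares of the sequenced transcripts of a cell population. A change in the share of cells that express a gene and a change in its RNA per cell therefore cannot be told apart. Without resistant replicate 3, all 23 genes kept the call.

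The 23 called genes ran from a log2FC of 0.36 to 1.16 with a median of 0.55, and 3 of them (DDX21, NOC3L and NIP7) reached a 2-fold difference. The 29 genes without a call ran from -0.23 to 0.70, 25 above and 4 below 0, and 10 of them had an unadjusted p under 0.05. The average of log2(CPM + 0.5) over the 52 genes was 6.22, 6.36 and 6.36 in control replicates 1 to 3 and 6.78, 6.69 and 6.68 in resistant replicates 1 to 3. The heat map gives each gene in each library.

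**Figure D1:**
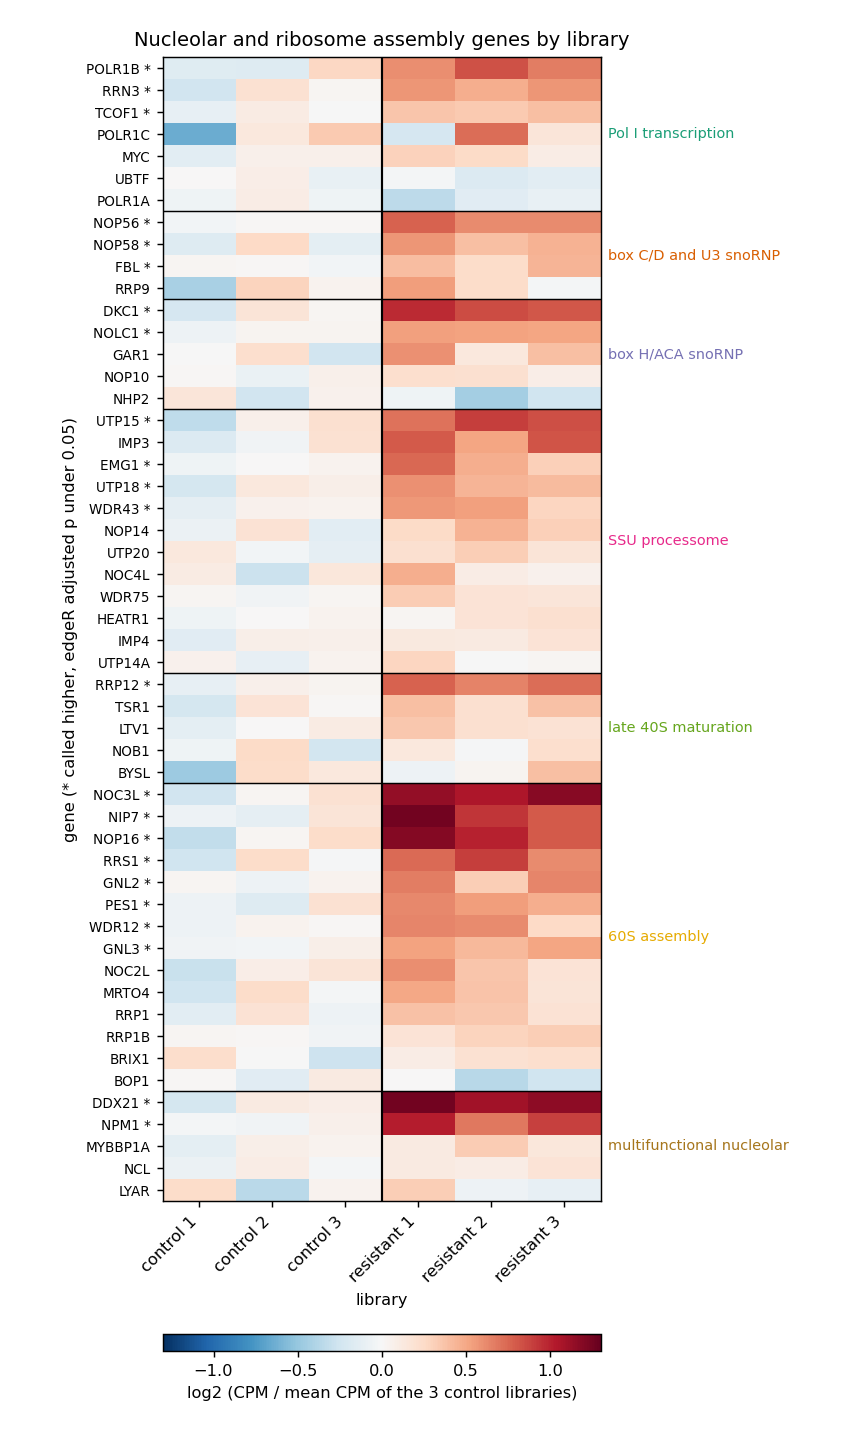
Level of each of the 52 tested genes (rows, grouped by role) in the 6 libraries (columns), as log2 of CPM over the mean of the 3 control libraries; asterisks mark the 23 genes called higher. The resistant columns are red for most genes, deepest for DDX21, NOC3L, NIP7 and NOP16, while NHP2, BOP1, POLR1A and UBTF are the 4 genes with a log2FC below 0.

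A sequence feature is given before the levels because many of these genes carry it and the rule that chose them did not use it. Near their transcription starts many had the E-box CACGTG, the 6-base element that MYC with MAX and other factors of the same class can bind. Windows from 250 bases before to 50 bases after each start, from RefSeq on GRCh38.p14, were found for 45 of the 53 genes, and 21 of the 45 (46.7%) held the element, which reads the same on both strands. The share was 12.8% of the 8680 tested genes with a window and 8.77% of all 27305 genes with one. Of 107 other ribosome biogenesis genes with a window, 26 (24.3%) held it. Of all 1023 genes called higher with a window, 163 (15.9%) held it. Counted by window, since a gene can have several, the share was 38.9% of the 54 windows of the genes described here and 7.26% of all 35116 windows. The median GC content was 64.7% in the windows of these genes and 65% in those of all tested genes. Among windows of 57.7 to 68.5% GC, 12 of 24 of these genes and 449 of 4019 tested genes (11.2%) held it. Of 24 matches, 19 lay within 50 bases of the start. The windows ended 50 bases after the start, so the 15 matches after it could lie no further away. The other 9 matches lay before the start. A match describes the letters only, and binding was not measured here.

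The element was present in 8 of 18 called genes with a window (44.4%) and in 12 of 26 without a call (46.2%). The next lines give 30 bases around the match nearest the start, with the element in capitals, for the 8 called genes that have it and for NOP10 and UTP20 as uncalled genes whose match also lies at the start.
DDX21: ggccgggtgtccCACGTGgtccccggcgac
NOC3L: tagggacttcggCACGTGtgtcattccccg
GNL2: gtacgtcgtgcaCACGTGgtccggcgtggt
PES1: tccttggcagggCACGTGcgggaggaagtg
GNL3: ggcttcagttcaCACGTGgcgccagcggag
UTP18: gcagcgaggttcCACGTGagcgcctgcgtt
WDR43: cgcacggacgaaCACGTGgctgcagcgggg
FBL: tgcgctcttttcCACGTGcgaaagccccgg
NOP10: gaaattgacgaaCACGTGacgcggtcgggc
UTP20: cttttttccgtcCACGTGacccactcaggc

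On GRCh38.p14 the plus-strand stretches are chr10:68956604-68956633 for DDX21, chr3:52686026-52686055 for GNL3, chr17:51260538-51260567 for UTP18, chr2:28894658-28894687 for WDR43 and chr12:101280083-101280112 for UTP20. Those on the minus strand are chr10:94362903-94362932 for NOC3L, chr1:37595917-37595946 for GNL2, chr22:30591880-30591909 for PES1, chr19:39846356-39846385 for FBL and chr15:34343130-34343159 for NOP10. The element began 31 bases before the start in DDX21, 11 before in NOP10 and 10 before in UTP20. In the others it began after the start, at base 4 in GNL2 and WDR43, 5 in UTP18, 7 in GNL3 and FBL, 14 in PES1 and 20 in NOC3L. NOP56, DKC1, NPM1, NOP16 and NIP7, which were among the most changed genes, had no such letters in their windows.

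**Figure D2:**
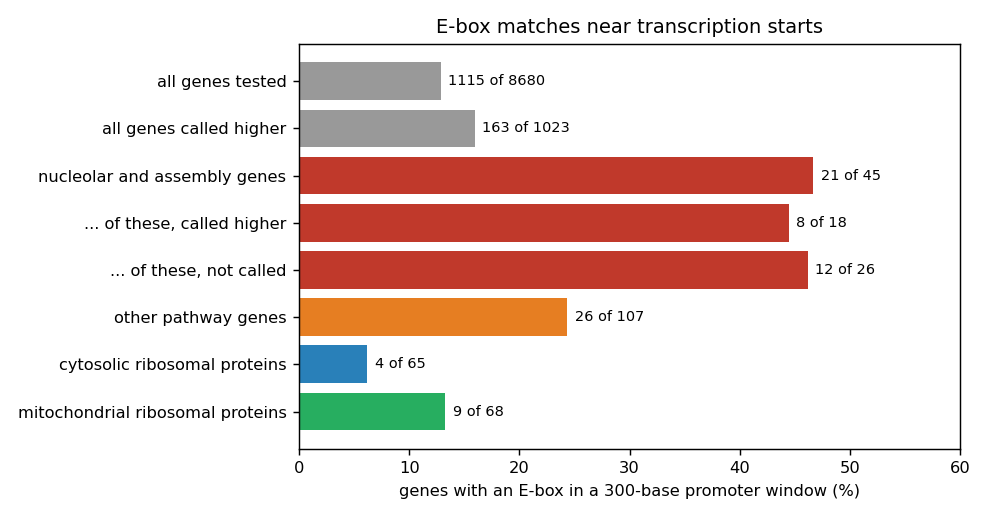
Share of genes (horizontal axis, percent) with an E-box in a promoter window of 300 bases, for the genes described here, for related gene lists and for all genes tested; labels give the counts. The bars of called (44.4%) and uncalled (46.2%) nucleolar genes are alike in length, and both are longer than the 12.8% of all tested genes. Other genes of the pathway lie between, at 24.3%.

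Among genes that drive or carry out transcription of ribosomal DNA, 3 of 7 were called higher and 0 lower. POLR1B, the second-largest subunit of RNA polymerase I, measured 44.7, 44.4 and 60.1 CPM in control and 75.8, 88.2 and 78.8 CPM in resistant replicates 1 to 3. The groups did not overlap (log2FC 0.70, SE 0.15, edgeR adjusted p = 0.000455). RRN3, the initiation factor that brings the polymerase to the promoter, measured 83.8, 114 and 101 CPM in control and 148, 139 and 149 CPM in resistant libraries, again without overlap (log2FC 0.52, SE 0.12, edgeR adjusted p = 0.000922). TCOF1, the nucleolar scaffold treacle mutated in Treacher Collins syndrome, was also called higher (log2FC 0.36), a call lost with 2 libraries a group (edgeR adjusted p = 0.115).

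In contrast, the catalytic subunit gene POLR1A (log2FC -0.19) and UBTF, the factor that holds ribosomal DNA in an open state (-0.12), had values below 0 and no call. POLR1A had 173, 192 and 173 CPM in control and 141, 162 and 168 CPM in resistant libraries, each resistant value under each control value, at an edgeR adjusted p of 0.194. POLR1C, a subunit shared with RNA polymerase III, had the largest p of the 7, with 11.3, 19.4 and 22.3 CPM in control and 15.2, 29.2 and 19.6 CPM in resistant libraries, which overlapped widely (log2FC 0.23, SE 0.26, edgeR adjusted p = 0.574). Its value turned to -0.046 without resistant replicate 2.

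MYC itself measured 470.5, 542 and 541 CPM in control and 636, 616 and 554 CPM in resistant libraries. Every resistant value lay above every control value, although by 554 against 542 CPM at the closest. The mean went from 518 ± 41 to 602 ± 42.4 CPM, a 1.16-fold difference, and missed the threshold (log2FC 0.21, SE 0.09, edgeR adjusted p = 0.0804). Over the 17 alternatives its adjusted p ran from 0.0566 to 0.267. Among 9 tested genes of the wider MYC network, the dimer partner MAX (log2FC 0.48), MXI1 (0.53) and MGA (0.45) were called higher and MLXIP lower (-0.65). This list mixes partners with antagonists of MYC. Its median log2FC was -0.05, with 4 of the 9 values above 0.

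For the core of the box C/D snoRNP, which guides methylation of ribose in ribosomal RNA, transcripts of all 3 listed proteins were called higher. NOP56 measured 219, 227 and 227 CPM in control and 381, 344 and 343 CPM in resistant libraries, with a narrow spread inside each group (log2FC 0.66, SE 0.09, edgeR adjusted p = 1.03e-06). NOP58, its paralog in the same particle, measured 167, 225 and 172 CPM and 279.6, 246 and 258 CPM (log2FC 0.46, SE 0.11, edgeR adjusted p = 0.0013). The highest control library of NOP58 came close to the lowest resistant one. The methyltransferase FBL, fibrillarin, went from 222 ± 5.16 to 285 ± 21 CPM (log2FC 0.37), and its call was lost with 2 libraries a group (adjusted p = 0.0624). RRP9, a protein specific to the U3 snoRNP that starts precursor cleavage, showed overlapping groups of 17.5, 28.6 and 24.1 CPM in control and 34.1, 27.5 and 22.9 CPM in resistant libraries (log2FC 0.22, SE 0.22, edgeR adjusted p = 0.508).

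Within the box H/ACA snoRNP, which converts uridine to pseudouridine, the enzyme transcript was called higher and those of its small partners were not. DKC1, dyskerin, the pseudouridine synthase that also stabilises telomerase RNA, measured 346, 449.5 and 409.8 CPM in control and 787, 722 and 704 CPM in resistant libraries, a 1.84-fold difference of the means (log2FC 0.87, SE 0.09, edgeR adjusted p = 3.22e-09). The lowest resistant value was far above the highest control value. NOLC1, a phosphoprotein chaperone of snoRNPs, measured 222, 237 and 238 CPM and 336, 333 and 332 CPM, with the resistant libraries nearly equal (log2FC 0.52, SE 0.09, edgeR adjusted p = 5.46e-05). Of the 3 other core proteins, GAR1 had a log2FC of 0.37 (SE 0.17, edgeR adjusted p = 0.113) and NOP10 of 0.17. The value of GAR1 was as large as that of FBL, which was called with an SE of 0.10. GAR1 had 1053 counts over all libraries and FBL 6028. NHP2 had 28.8, 21.8 and 27 CPM in control and 24.9, 19 and 21.7 CPM in resistant libraries, which overlapped, and its value was below 0 (log2FC -0.23, SE 0.22, edgeR adjusted p = 0.507).

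All 12 SSU processome genes had a log2FC above 0, from 0.11 to 0.79, and 4 were called higher. UTP15, of the subcomplex that binds nascent precursor RNA first, measured 30.3, 40.1 and 44.3 CPM in control and 62.3, 71.5 and 68.5 CPM in resistant libraries (log2FC 0.79, SE 0.16, edgeR adjusted p = 0.000201). WDR43, a member of the same subcomplex, measured 159.9, 181 and 179.5 CPM and 256, 251 and 211 CPM (log2FC 0.46, SE 0.10, edgeR adjusted p = 0.000922). Both genes were without overlap between groups.

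The methyltransferase EMG1 (log2FC 0.51) and UTP18 (0.46) were the others with a call. That of UTP18 was lost without control replicate 1, and its adjusted p reached 0.08 over the alternatives. The other members of the first-binding subcomplex on the list, HEATR1 (0.14) and WDR75 (0.22), did not pass, nor did NOP14, NOC4L, IMP4 and UTP20, at 0.13 to 0.33. UTP14A, which activates the helicase that displaces U3, had 104, 92.7 and 104 CPM in control and 121, 99.4 and 102 CPM in resistant libraries, values that overlapped (log2FC 0.11, SE 0.12, edgeR adjusted p = 0.582). IMP3, a U3 snoRNP protein, had a log2FC of 0.70 but only 278 counts over all libraries, and its SE of 0.32 was the largest of the 52.

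Of 5 genes for late steps of the 40S subunit, 1 was called higher. RRP12, needed for export of both subunits from the nucleus, measured 102, 115 and 112 CPM in control and 187, 172 and 182 CPM in resistant libraries, well separated (log2FC 0.71, SE 0.11, edgeR adjusted p = 4.04e-06). The GTPase-like factor TSR1 (log2FC 0.31), LTV1 (0.24) and the endonuclease NOB1 (0.10) had values above 0 without a call. BYSL, bystin, which binds maturing 40S particles, had 19.5, 32 and 29.9 CPM in control and 26, 27.7 and 35.6 CPM in resistant libraries, which overlapped (log2FC 0.10, SE 0.21, edgeR adjusted p = 0.778), and its value was -0.046 without control replicate 1, -0.040 without resistant replicate 3 and -0.20 without both.

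**Figure D3:**
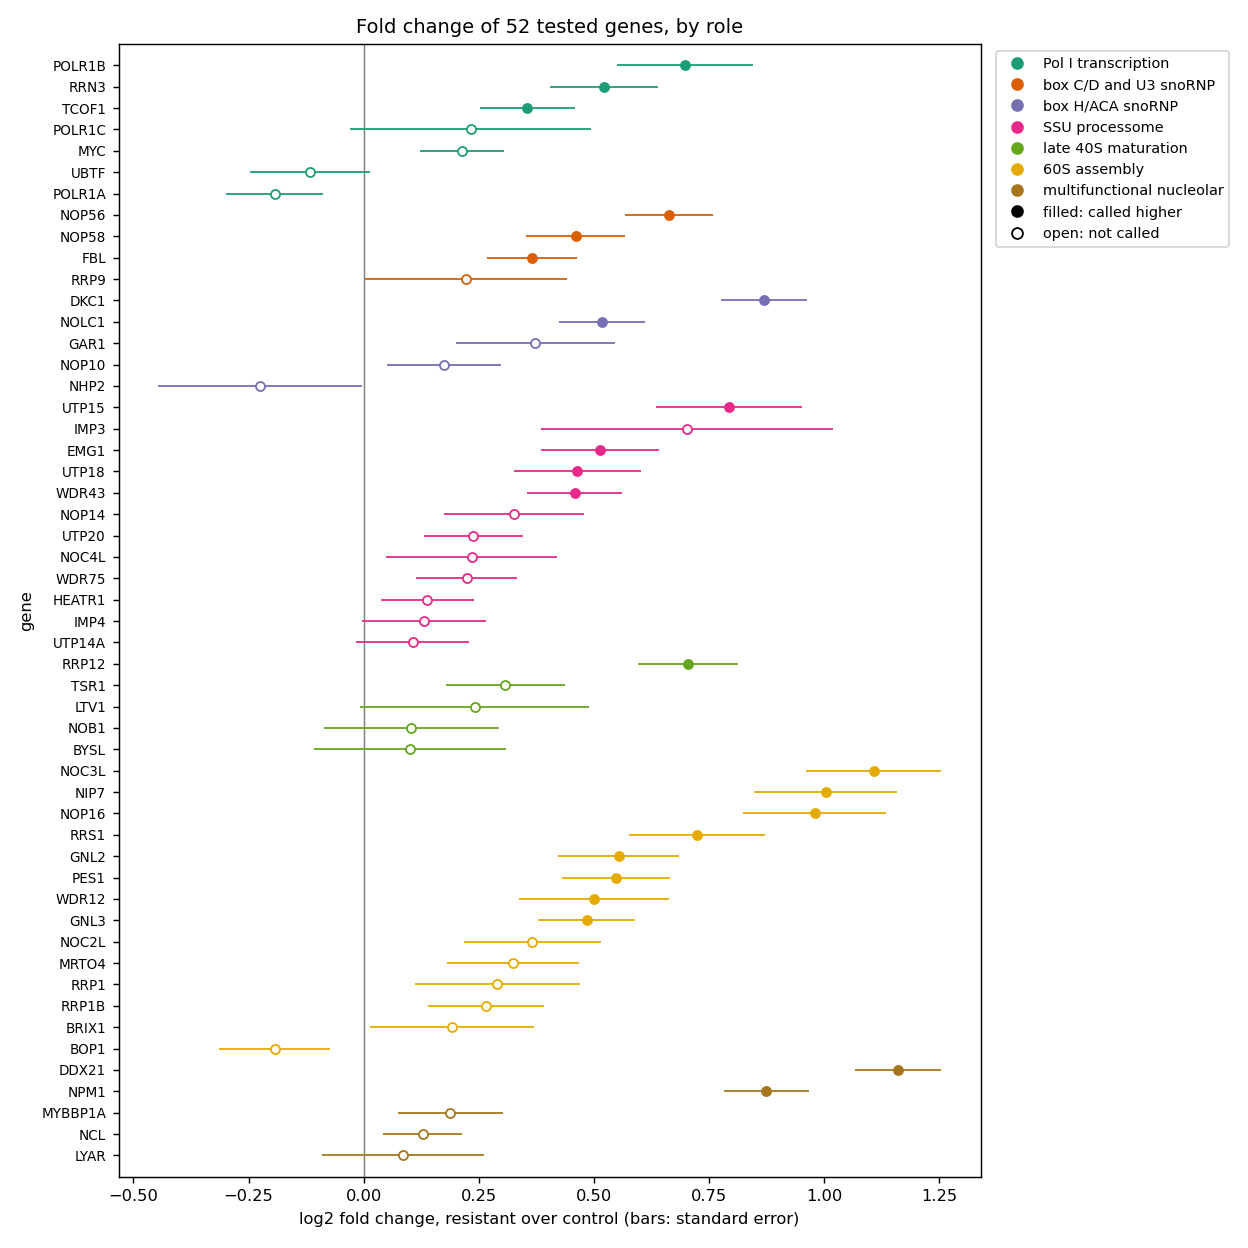
Log2 fold change of each of the 52 genes (points, resistant over control) with its standard error (bars), coloured by role; filled points are called higher. Filled points occur in every role, and the 60S assembly genes hold 8 of the 23.

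Assembly of the 60S subunit held the largest number of called genes, 8 of 14 tested, with a median log2FC of 0.49. NOC3L, which acts with partners of the NOC family in moving early 60S particles, measured 33.9, 41.1 and 46.4 CPM in control and 89.3, 83.9 and 91.7 CPM in resistant libraries, a 2.18-fold difference (log2FC 1.11, SE 0.15, edgeR adjusted p = 2.43e-07). NIP7, a factor for early 60S assembly and precursor processing, measured 37.5, 36.3 and 44 CPM and 93.7, 75 and 68.3 CPM (log2FC 1.0, SE 0.16, edgeR adjusted p = 4.70e-06). In both genes the lowest resistant library was above the highest control library by more than the range of the control group. NOP16 went from 40.4 ± 7.6 to 81.1 ± 11.1 CPM (log2FC 0.98), and RRS1, needed to load the 5S RNA particle, from 49.9 ± 8.57 to 84.1 ± 8.32 CPM (0.72).

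The nucleolar GTPases GNL2 (log2FC 0.55) and GNL3, also called nucleostemin (0.48), were called higher. The PeBoW complex, a trimer that processes the 60S precursor, was uneven. PES1 (0.55) and WDR12 (0.50) were called higher, while BOP1 went from 126 ± 11.9 to 110.3 ± 14.6 CPM without a call (log2FC -0.19, SE 0.12, edgeR adjusted p = 0.258). The call of WDR12 was lost without control replicate 3 and without resistant replicate 1 or 2, and its adjusted p reached 0.0872 over the alternatives. NOC2L (0.37), MRTO4 (0.33), RRP1 (0.29) and RRP1B (0.27) did not pass. BRIX1, a Brix-domain factor that helps build the 60S subunit, had 41.6, 35.6 and 29.6 CPM in control and 38.2, 40.9 and 41.5 CPM in resistant libraries and overlapped (log2FC 0.19, SE 0.18, edgeR adjusted p = 0.474). NOP2, a methyltransferase of large-subunit RNA, failed the filter, with 0, 6 and 10 counts in control and 4, 11 and 2 in resistant libraries. Its span, chr12:6556863-6568691 on GRCh38, overlaps the coding gene AC006064.6 in GENCODE 29, and the part of that overlap in its low count was not tested.

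Among genes for nucleolar proteins with several tasks, 2 of 5 were called higher. DDX21, an RNA helicase that acts in both ribosomal DNA transcription and precursor processing, measured 352, 447 and 439 CPM in control and 983, 877 and 921 CPM in resistant libraries. Its span is chr10:68956128-68985073 on GRCh38. At 2.25-fold it had the largest log2FC of the 52 and no overlap (log2FC 1.16, SE 0.09, edgeR adjusted p = 1.43e-12). NPM1, nucleophosmin, a histone chaperone and the main protein of the granular nucleolus, measured 403, 397 and 427 CPM and 832, 659 and 759 CPM (log2FC 0.87, SE 0.09, edgeR adjusted p = 1.89e-09). Each resistant value exceeded the control values by more than the range of the control group.

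NCL, nucleolin, which binds precursor RNA, had 639.6, 724 and 662 CPM in control and 731, 724 and 763 CPM in resistant libraries and overlapped (log2FC 0.13, SE 0.09, edgeR adjusted p = 0.297). MYBBP1A, a repressor of ribosomal DNA transcription, had a log2FC of 0.19 without a call. LYAR, a zinc-finger protein of the nucleolus, had 50.4, 33.5 and 44 CPM in control and 53.1, 40.7 and 39.7 CPM in resistant libraries, which overlapped (log2FC 0.09, SE 0.18, edgeR adjusted p = 0.778), and its value was -0.083 without control replicate 2 and -0.046 without resistant replicate 1.

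**Figure D4:**
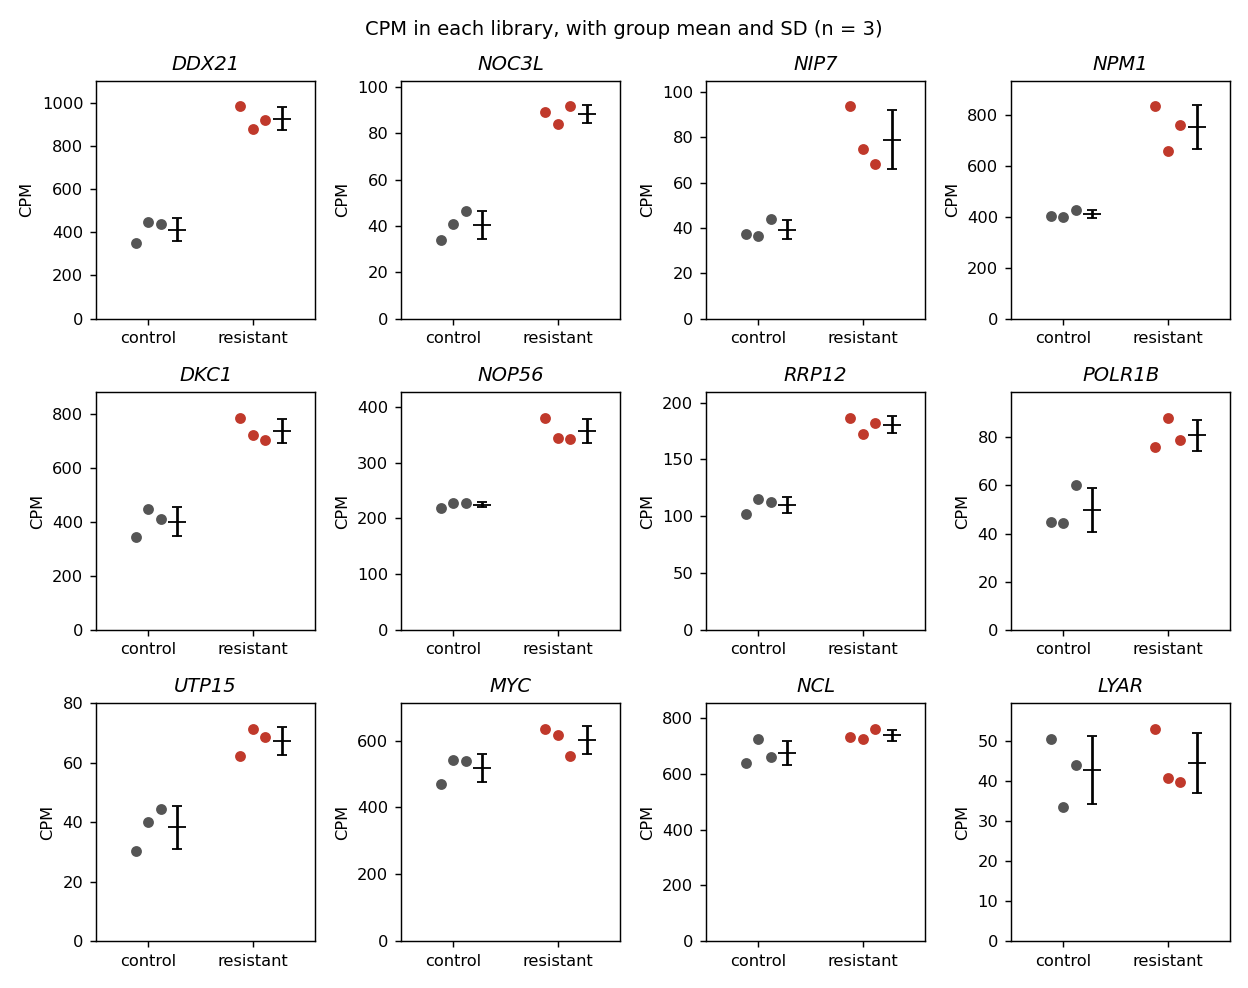
CPM of 12 genes in each library (points; control grey, resistant red) with group mean and SD (n = 3), each axis from 0. The first 9 panels (DDX21 to UTP15) have no overlap between groups, MYC is separated by a small gap, and NCL and LYAR overlap.

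Per kilobase of the principal transcript, MYC, NPM1, FBL, NCL, NOP10 and DKC1 had the highest control levels, from 156 CPM per kb in DKC1 to 379 in MYC. The lowest were IMP3 (4.30), WDR12 (4.70) and LTV1 (8.82). The order depends on which transcript is counted as principal, and NPM1 (233) and MYC change places with the longest coding transcript. Called genes had a median control level of 103 CPM and those without a call of 63.8 CPM. Their median SE of log2FC was 0.12 and 0.14.

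Other genes of the same pathway were also called higher more often than lower. Of 125 tested factors outside the 53, 43 were called higher and 5 lower, with a median log2FC of 0.29. Among SSU and 40S factors, 20 of 49 were higher and 1 lower, with RIOK3, an atypical kinase of the 40S pathway, at 0.96 and PDCD11, the RNA-binding protein of early precursor cleavage, at 0.90. The helicase DDX52 was lower (-0.45). Among 60S factors, 19 of 48 were higher and 2 lower. SBDS, the protein deficient in Shwachman-Diamond syndrome, went from 81 ± 5.12 to 159 ± 18.4 CPM. EIF6, the anti-association factor that SBDS helps release from the 60S subunit, went from 176 ± 8.90 to 321 ± 34.9 CPM. The helicase DDX54 (-0.49) and ISG20L2 (-0.34) were lower.

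Of 15 tested genes of RNA polymerase I and its factors beyond the 53, 2 were called higher and 2 lower (13.3% each), close to the shares of all genes tested. POLR1E (0.72) and TWISTNB (0.60), both polymerase subunits, were higher. TAF1C, of the promoter selectivity factor, was lower (-0.93), as was POLR2E, a subunit shared by all nuclear polymerases (-0.38). Of the 13 tested exosome genes, which trim ribosomal RNA, 2 were higher (15.4%), EXOSC1 (0.65) and EXOSC4 (0.59), and 0 lower, against 11.7% higher among all genes tested.

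Ribosomal proteins, which the pathway joins to ribosomal RNA, were counted in the same way. Cytosolic ribosomal protein genes had 40 of 78 called higher and 2 lower, with a median log2FC of 0.28, and 4 of 65 (6.15%) had the E-box. Mitochondrial ribosomal protein genes, which serve a separate ribosome, had 9 of 74 higher and 1 lower with a median of 0.13, and the 12.2% called higher was close to the 11.7% of all genes. Differences between these lists were not tested.

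**Figure D5:**
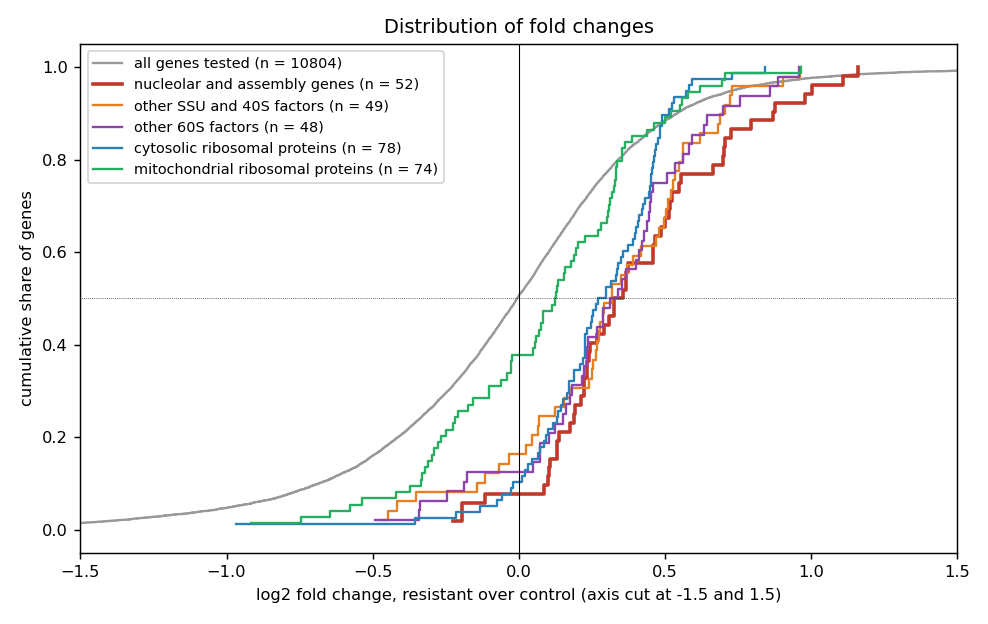
Cumulative share of genes (vertical axis) by log2 fold change (horizontal axis, from -1.5 to 1.5) for the 52 genes, 4 related lists and all 10804 genes tested. The curve of the 52 genes crosses the middle at 0.34 and that of all genes at -0.01; the mitochondrial ribosomal proteins lie between, at 0.13.

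Markers of proliferation were called lower more often than higher. Of 12 genes, 6 were called lower (50%), MKI67, TOP2A, CCNB1, BUB1, AURKA and MCM5, and 2 higher (16.7%), MCM2 and CCND1. The other 4 had no call. Of all genes tested, 12.3% were called lower and 11.7% higher. MKI67 fell from 394 ± 32.1 to 257 ± 39.7 CPM (log2FC -0.61, SE 0.10, edgeR adjusted p = 1.61e-05) and CCND1 rose from 198 ± 43.5 to 369 ± 14.1 CPM. Their part in the changes of the nucleolar genes was not tested.

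For some genes with a call, and for some without, neighbours in the genome were also often called higher. All 4 tested genes on chromosome 10, DDX21, NOC3L, RRP12 and NOLC1, were called higher, and so were 124 of the 413 other tested genes of that chromosome (30.0%), with 12 lower and a median log2FC of 0.29. Within 5 Mb of DDX21, 21 of 54 other genes were higher and 0 lower, with a median of 0.41, against 1.16 in DDX21. Called higher were 14 of 52 neighbours of NOC3L, 19 of 72 of RRP12 and 18 of 72 of NOLC1. The windows of these genes overlap, so these counts share neighbours. On chromosome 5, 12 of 25 neighbours of NPM1 (48.0%) and 19 of 61 of NOP16 (31.1%) were higher, with medians of 0.38 and 0.20, in windows that also overlap. The part of these segments in the result was not tested. Without the 4 genes of chromosome 10, 19 of 48 were called higher and 0 lower, with a median log2FC of 0.32. Around DKC1 on chromosome X, 11 of 55 neighbours were higher (20%), with a median of 0.10. The share was 9.21% around NIP7, 5.77% around NOP56 and 13.8% around POLR1B, against 11.7% of all genes tested. Around RRS1, 1 of 15 neighbours was higher (6.67%) and 4 were lower. Genes without a call varied as widely. Their share of higher neighbours was 33.3% around UTP14A, 23.1% around NHP2 and 22.7% around WDR75. It was 3.23% around LYAR and 0% around NOP10. The window of NHP2, whose log2FC was -0.23, overlaps that of NOP16.

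Reads cannot be assigned with certainty for some genes, because the sources used here do not say whether counting used strand. The spans of 23 genes overlap another coding gene in GENCODE 29, 10 of the called ones among them, and RRN3, UTP15, EMG1, PES1, WDR12, NOP16, GNL2, GNL3 and NIP7 each have a coding gene on the opposite strand. Without these 23, 13 of 30 tested genes were called higher and 0 lower, with a median of 0.31. Pseudogenes named after them exist for 13 genes, with 45 for NPM1, whose counts are therefore uncertain. Leaving out those 13, 17 of 39 were called higher and 0 lower.

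In 8 of the 53 genes, introns or other parts of the span hold small nucleolar or small Cajal body RNA genes on the same strand, 26 in total. NOP56, NOP58, DKC1, WDR43 and GNL3 are the called genes among them, and NCL, TSR1 and POLR1C those without a call. GNL3 holds 6, NOP56 5, NOP58 4, WDR43 and NCL 3 each, DKC1 and TSR1 2 each and POLR1C 1. The small RNAs themselves were not analysed here.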

How the data were processed

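The 53 genes, their roles and all gene lists were chosen with earlier results of these data known. RNA sequencing libraries came from 3 control and 3 resistant samples, with RNA extraction by Trizol and columns, per the labels' protocols. Trimmomatic, HISAT2 and Bowtie2 appear in the submitters' processing notes, with no version and no role. The counter, genome build, annotation and strand setting were not given in the sources used here. The values the authors deposited are whole-number counts per gene symbol, not normalized, and the 6 columns equalled the single-library files. In the joint table, dates stood in place of 27 symbols, which were restored by Entrez ID. Among counts of 1 to 20, 81.8 to 88.5% were even, so halved counts were tried. Replicate pairs had a chi-square divided by its degrees of freedom of 1.79 to 2.99 on halved counts, beyond sampling noise, and each library entered as its own sample.

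Genes were filtered with filterByExpr (10804 of 19202 kept), scaled by TMM and tested with edgeR 4.0.16 (quasi-likelihood F test, group only, R 4.3.3). Adjusted p-values are Benjamini-Hochberg over all tested genes. The SE was not fitted directly: it is the size of the log2FC divided by the square root of the F statistic. The test was checked on simulated data. The other settings tried were scaling by RLE, by upper quartile and by library total, 2 other filters, DESeq2 1.42.0, limma-voom (limma 3.58.1), a replicate block, halved counts, an adjusted p of 0.01, leaving out each library, and 2 against 2 libraries (without control replicate 1 and resistant replicate 3). Leaving out genes by chromosome, overlap or pseudogenes was added after the data were seen. Named in full are MYC, and in each role the 2 called genes with the smallest p and the tested gene with the largest p; of the other pathway lists, the 2 called genes with the smallest p in each direction. Every other gene named was picked with its values in view. Of the lists made, snoRNA host genes had 1 gene tested, TAF1D, without a call, and the fibroblast list summed to 20.4 to 40.3 CPM in control and 18.7 to 60.9 CPM in resistant libraries. The 12 hepatocyte and liver tumour genes summed to 155 to 175 and 98.1 to 122 CPM. Spans, overlaps and transcript lengths are from GENCODE 29 on GRCh38, with APPRIS principal transcripts, and matplotlib 3.10.9 (Python 3.11.15) drew the figures.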

Additional observations from a re-analysis of the deposited data

How the results depend on the processing

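All 23 called genes kept their call under the 3 other scalings, the 2 other filters, DESeq2, limma-voom, halved counts and the replicate block, which left 23 genes higher and 0 lower of the 52 and called 2518 genes in all. Deviations of same-numbered libraries from their group means correlated at -0.015 to 0.033, and those of differently numbered ones at -0.060 to 0.064. The sources used here do not say whether equal numbers mark a shared culture or batch. At an adjusted p of 0.01, 1651 genes were called, 800 higher and 851 lower, and 21 of the 23 remained, without UTP18 and WDR12. Of the 23, 19 were called under all 17 alternatives listed in the methods, and TCOF1, FBL, UTP18 and WDR12 were not. With 2 libraries a group 20 remained. Leaving out each library in turn gave 22 to 25 genes higher and 0 lower, with medians of 0.30 to 0.41, the highest without control replicate 2. Other pathway genes called lower, 5 in the main result, numbered 1 to 5 on leaving out each library, 1 at an adjusted p of 0.01 and 1 with 2 libraries a group. Without genes that overlap another coding gene, 13 were called higher, of 30. Among genes without a call, leaving out each library gave -0.046 to 0.24 in BYSL, -0.083 to 0.21 in LYAR and -0.046 to 0.43 in POLR1C. BYSL turned to -0.046 without control replicate 1, -0.040 without resistant replicate 3 and -0.20 with 2 libraries a group, LYAR to -0.083 without control replicate 2 and -0.046 without resistant replicate 1, and POLR1C to -0.046 without resistant replicate 2. The cause was not tested. Under the other scalings the median log2FC of all genes was -0.01 to -0.03. Genes of few counts, such as IMP3, are limited by depth.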
